A study of Homo sapiens with 36 samples.

Results

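Parental K562 cells and the line that the labels call LMO2 control were followed over 4 days of exposure to dTAGv1, and they make up 12 of the 36 libraries in the series. They were selected by label: every library of these 2 lines, with no measured value used. For each line, 2 libraries labelled bio rep 1 and bio rep 2 were taken on day 0 without dTAGv1, on day 1 with it and on day 4 with it, the dose being 750 uM as the labels give it. K562 is a human chronic myeloid leukemia line with erythroid features. The groups are parental day 0, day 1 and day 4 and LMO2 control day 0, day 1 and day 4, 2 libraries each, and 12 libraries of LMO2 degron lines 1 and 2 under the same schedule serve only as a comparison. The sources used here do not say what the LMO2 control line carries, nor whether any line is a single clone. Every treated library is also later than its day 0 library, so dTAGv1 and time in culture cannot be told apart. The bio reps are separate samples by their labels, and if they came from 1 culture the p-values measure only technical spread.

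A degron is a protein tag through which a small molecule brings the tagged protein to a ubiquitin ligase for breakdown. In dTAG systems the tag is a mutant of FKBP12, the protein encoded by FKBP1A, and dTAGv1 joins that tag to the VHL ligase. Cholesterol synthesis, the pathway on which most of the values below bear, is controlled by SREBP transcription factors, which SCAP and INSIG proteins hold in the endoplasmic reticulum while sterols are plentiful. When sterols run low, SREBP is released, often acts beside the factor NF-Y, and switches on the enzymes from HMGCS1 to DHCR7 as well as INSIG1 itself.

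The promoters of 4 genes of this pathway are shown because these genes are described library by library below. Each is the run of 250 bases before the RefSeq start (GRCh38.p14), with CCAAT, the core NF-Y motif, in capitals on either strand (ATTGG is the reverse strand form). The HMGCS1 run lies at chr5:43313413-43313662 on the minus strand, that of MVD at chr16:88663092-88663341 on the minus strand, that of FDPS at chr1:155308616-155308865 on the plus strand and that of INSIG1 at chr7:155297628-155297877 on the plus strand.
HMGCS1: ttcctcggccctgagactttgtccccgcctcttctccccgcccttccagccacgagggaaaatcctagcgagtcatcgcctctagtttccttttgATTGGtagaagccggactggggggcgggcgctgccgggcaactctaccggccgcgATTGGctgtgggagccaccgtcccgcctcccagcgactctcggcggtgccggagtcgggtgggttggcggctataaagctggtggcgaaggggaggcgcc
MVD: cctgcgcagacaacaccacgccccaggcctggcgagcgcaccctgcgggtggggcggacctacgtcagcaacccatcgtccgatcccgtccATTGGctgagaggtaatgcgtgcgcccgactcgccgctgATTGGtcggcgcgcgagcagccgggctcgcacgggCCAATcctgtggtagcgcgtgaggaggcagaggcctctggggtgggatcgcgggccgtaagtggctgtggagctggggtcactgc
FDPS: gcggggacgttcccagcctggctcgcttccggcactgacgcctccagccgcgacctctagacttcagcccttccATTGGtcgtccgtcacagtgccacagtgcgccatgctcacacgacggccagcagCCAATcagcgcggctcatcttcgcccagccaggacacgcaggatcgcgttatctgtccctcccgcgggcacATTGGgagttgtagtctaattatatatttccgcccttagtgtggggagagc
INSIG1: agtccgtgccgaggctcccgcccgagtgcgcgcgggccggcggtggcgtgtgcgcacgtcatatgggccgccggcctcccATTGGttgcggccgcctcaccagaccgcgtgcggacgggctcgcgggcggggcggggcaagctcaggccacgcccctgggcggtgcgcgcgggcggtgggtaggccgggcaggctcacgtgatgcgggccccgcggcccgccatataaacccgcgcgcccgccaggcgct
HMGCS1 held 2 matches, MVD 3, FDPS 3 and INSIG1 1. Over windows of 300 bases, which add 50 bases after the start, CCAAT stood in 12 of the 17 cholesterol enzyme promoters matched (70.6%) and in 35.7% of the 27305 promoters of the table. TCACNCCAC, searched as an SREBP motif on both strands, stood in 0 of those 17 windows, in that of SREBF2 and in 1.15% of all. The motifs do not overlap in letters, and a match is a description of the sequence, not a site. Only this exact string was searched, so a window without it may still hold an SREBP site.

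Library depth was 17.2 to 25.7 M reads as recovered from the FPKM, read counts scaled by gene length and library total. GATA1, the erythroid master regulator, stood at 135 to 186 FPKM and KLF1, an erythroid activator, at 83.9 to 149 FPKM in the 12 libraries. Of the marker lists of other cells, 11 of 14 megakaryocyte, 10 of 14 monocyte and granulocyte, 5 of 8 lymphoid and 6 of 7 stromal genes stayed under 1 FPKM throughout, with GP1BB, SELP and MS4A1 at 0. The summed monocyte and granulocyte list ran from 50.5 to 74.3 FPKM on day 0, 48.9 to 64.9 on day 1 and 51.1 to 78.1 on day 4, and the lymphoid list from 10.3 to 20.6, 11.2 to 42.9 and 11.2 to 31.6. The first principal component (37.6% of variance) separated the bio reps and the second (24.3%) the lines, and the bio rep term of the fit below called 50.2% of genes. LMO2 control day 1 replicate 1 stood apart on the third (11.2%), with a score of 30.2 against -19 to 14.7 elsewhere. The third component also followed the day in bio rep 1. There parental day 1 scored 14.7, while day 0 scored -3.2 (parental) and -10.3 (LMO2 control) and day 4 -9.5 and -19. In bio rep 2 all scores lay from -5.1 to 5.1. Day 4 had the lowest score in each line and bio rep.

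FKBP1A and LMO2 were examined first, since they check what the lines carry. In parental cells FKBP1A stood at 80.4 and 119 FPKM on day 0, 84.2 and 118 on day 1 and 87.8 and 126 on day 4 (bio rep 1 and 2). The LMO2 control libraries held 318 and 344 FPKM on day 0, 272 and 464 on day 1 and 376 and 583 on day 4. All 6 LMO2 control values lay above all 6 parental values. On day 0 the degron lines, which by their label carry the tag, stood at 248 ± 23.6 and 255 ± 32.2 FPKM (SD, n = 2), also above the parental line and below the LMO2 control line. FKBP1C, a gene so similar to FKBP1A that reads could be split between them, was named after its values were seen. It averaged 1.91 FPKM in parental and 19.8 FPKM in LMO2 control libraries.

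LMO2, an adaptor of erythroid transcription complexes, showed the same order of lines. It stood at 37.2 and 32.3 FPKM on day 0, 46.6 and 31.2 on day 1 and 37.9 and 44.2 on day 4 in parental cells. The LMO2 control libraries held 248 and 252, then 212 and 328, then 286 and 443 FPKM, so that the 2 lines never overlapped. On day 0 the degron lines averaged 139 ± 10.1 and 146 ± 15.9 FPKM (SD, n = 2). In 1 limma fit with line, bio rep and day as terms, which called 23.7% of 13949 genes between the lines, the LMO2 control line exceeded the parental line by 2.89 ± 0.14 for LMO2 (log2 of FPKM + 1 ± SE; adjusted p = 9.91e-07). The same term gave 1.91 ± 0.09 for FKBP1A (adjusted p = 8.21e-07 in limma) and 2.82 ± 0.09 for FKBP1C (adjusted p = 1.25e-07 in limma). Among the 7154 genes with a mean of at least 5 FPKM, these differences ranked 4 (LMO2), 5 (FKBP1C) and 13 (FKBP1A) by size. FKBP5 was lower in the LMO2 control line, by a term of -0.36 ± 0.05 (adjusted p = 0.000973 in limma), and FKBP3, FKBP4 and FKBP2 did not pass between the lines, with 0.08, -0.12 and -0.11. On these genes the LMO2 control line stood with the degron lines and apart from the parental line, so it is called by its label and is not taken here to be free of a degron. Whether tag RNA was counted as FKBP1A was not tested, and the main results are given for each line as well as for both.

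**Figure D1:**
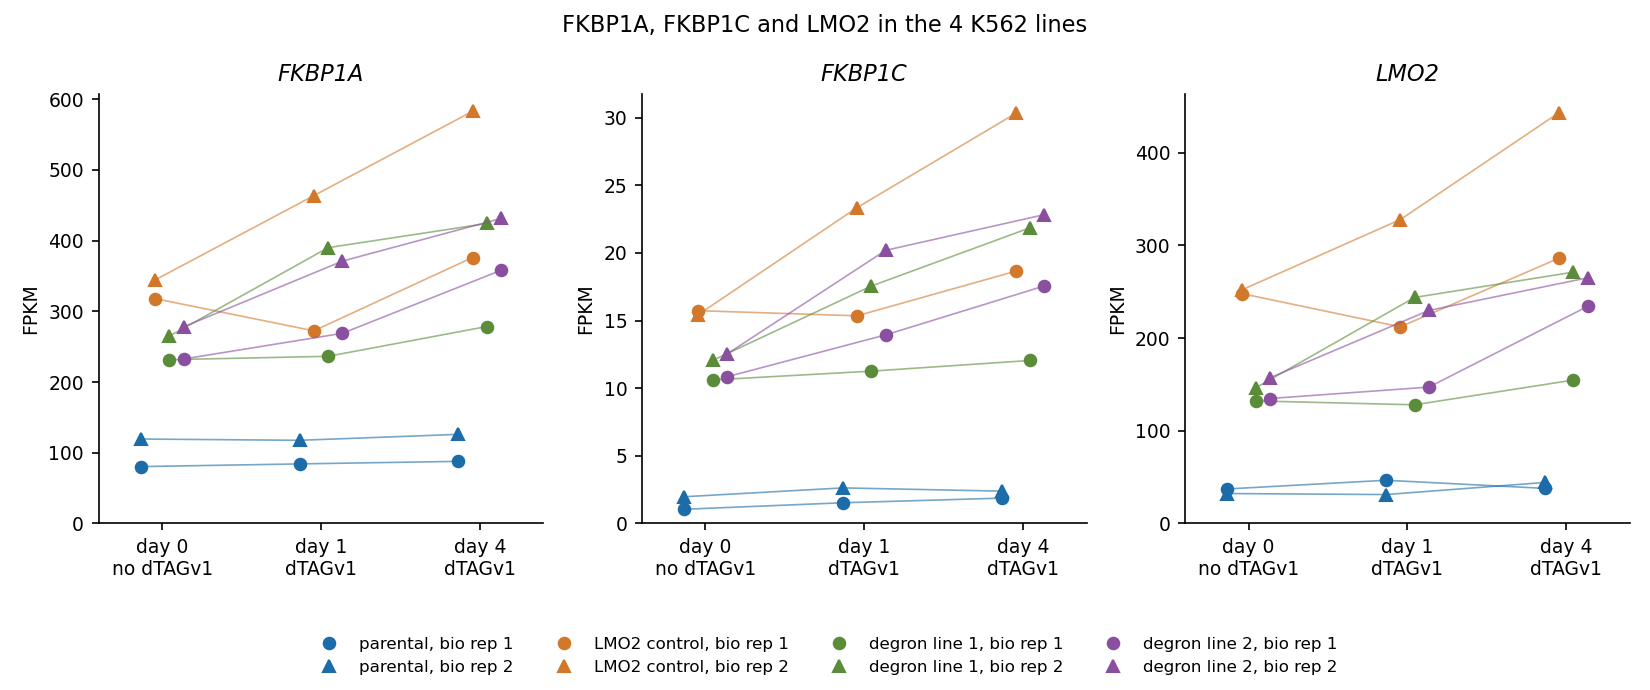
FPKM (y axes, from 0) of FKBP1A, FKBP1C and LMO2 on days 0, 1 and 4 (x axes) in each library, with colours for the 4 lines, circles for bio rep 1, triangles for bio rep 2 and lines joining libraries of 1 bio rep. The parental libraries lie lowest in all 3 panels, with FKBP1A at 80.4 to 126 FPKM against 272 to 583 in the LMO2 control line.

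The central question is which genes differ after dTAGv1 and time in lines that the labels do not call degron lines. No gene of 13949 passed at an adjusted p under 0.05 (limma, Benjamini-Hochberg) on day 1 or on day 4 against day 0, so 0% were called in each. At an unadjusted p under 0.05, 1457 genes stood apart on day 1 (10.4%; 543 or 3.89% higher, 914 or 6.55% lower) and 1223 on day 4 (8.77%; 859 or 6.16% higher, 364 or 2.61% lower). limma with voom weights on the recovered reads also called 0 and 0 (1614 and 1244 at unadjusted p under 0.05). The smallest adjusted p was 0.238 on day 1 and 0.169 on day 4, both in limma. In bulk RNA, fewer cells with a transcript and less of it per cell cannot be told apart. Both days share their day 0 libraries and are not independent of each other.

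The sizes were small across the table. The median change was -0.02 on day 1 and 0.03 on day 4, and 97.67% and 98.12% of genes changed by less than 0.5 on the log2 scale. The 95% interval lay within 1 log2 unit on either side of 0 for 96.54% of genes on day 1 and 96.82% on day 4. A change of at least 1 was reached on day 1 by 2 genes that were higher and 7 that were lower, and on day 4 by 13 and 11. A pseudocount of 1 FPKM understates the change of low genes.

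In the degron lines, fitted the same way, 2809 genes (20.1%) were called on day 1 and 8065 (57.8%) on day 4. The change itself differed between degron and control lines for 313 genes on day 1 (2.24%; 137 or 0.982% higher and 176 or 1.26% lower in the degron lines) and for 5406 on day 4 (38.8%; 2839 or 20.4% higher, 2567 or 18.4% lower). Without the bio rep term these counts were 26 and 3342. Between the parental and LMO2 control lines the change from day 0 differed for 0 genes on either day in limma (255 and 261 at unadjusted p under 0.05, or 1.83% and 1.87%).

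**Figure D2:**
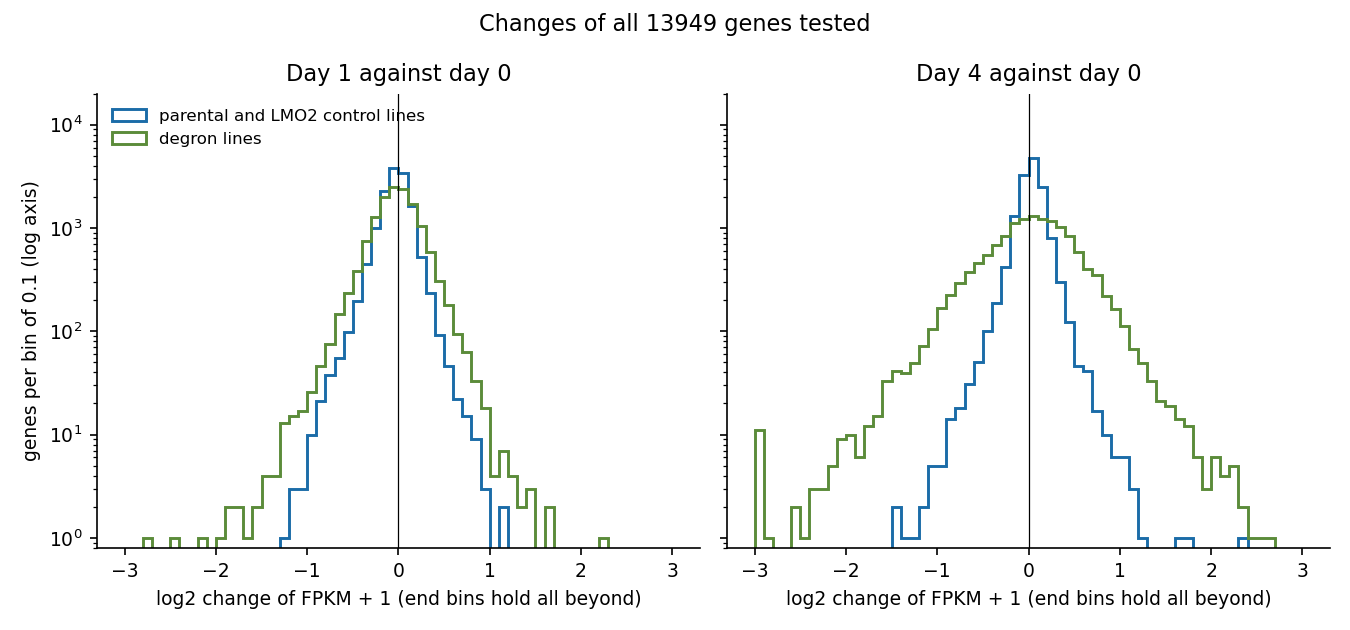
Number of genes per bin of 0.1 (y axes, log scale) by log2 change from day 0 (x axes) on day 1 and day 4, for the parental and LMO2 control lines and for the degron lines. The control distributions stay narrow on both days, with 13 genes at or above 1 and 11 at or below -1 on day 4, while that of the degron lines widens from day 1 to day 4.

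Cholesterol synthesis enzymes lay above day 0 as a group, with no single enzyme past the test. All 22 enzymes of the list were tested and all 22 lay above 0 on day 1 and on day 4, where 43.1% and 61.7% of all genes did. The median was 0.35 on day 1 and 0.22 on day 4, against -0.02 and 0.03 over all genes. None was called, and 15 (day 1) and 11 (day 4) were higher at an unadjusted p under 0.05, a share that was 3.89% and 6.16% among all genes. 14 enzymes on day 1 and 11 on day 4 were higher in 4 of 4 pairs of 1 line and bio rep, as were 7.74% and 14.4% of all genes.

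The 4 pairs did not carry this equally. The enzymes' median change on day 1 was 0.29 and 0.55 in parental bio rep 1 and 2, 0.44 in LMO2 control bio rep 1 and 0.07 in LMO2 control bio rep 2. On day 4 it was 0.31, 0.17, 0.26 and 0.03 in the same order. The LMO2 control bio rep 2 pair was the lowest on both days. Over each line alone, the list median was 0.40 (parental) and 0.26 (LMO2 control) on day 1 and 0.27 and 0.16 on day 4.

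HMGCS1, which makes HMG-CoA at the entry of the pathway, had the largest day 1 change among the enzymes. In parental cells it stood at 66.7 and 54.5 FPKM on day 0, 122 and 124 on day 1 and 94.3 and 86.8 on day 4. The LMO2 control libraries held 47.7 and 70.2, then 81.7 and 86.0, then 78.6 and 83.4 FPKM. The 4 libraries of day 1 and the 4 of day 4 all lay above the 4 of day 0, which held for 0.502% and 1.54% of all genes. The change was 0.77 ± 0.13 on day 1 (adjusted p = 0.238 in limma) and 0.53 ± 0.13 on day 4 (adjusted p = 0.416 in limma), short of the threshold. On day 1 it was 1.01 in the parental line alone and 0.53 in the LMO2 control line alone.

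MVD, which makes isopentenyl diphosphate from mevalonate diphosphate, stood at 62.3 and 46.5 FPKM in parental and 52.1 and 49.2 in LMO2 control libraries on day 0. On day 1 it stood at 82.2 and 90.7 and at 90.0 and 61.9 FPKM, and on day 4 at 69.4 and 66.6 and at 62.2 and 61.1. All pairs were higher on both days, although the lowest treated libraries lay just under the highest of day 0. The changes were 0.61 ± 0.10 (adjusted p = 0.238 in limma) and 0.30 ± 0.10 (adjusted p = 0.479 in limma).

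FDPS, which joins isoprene units into farnesyl diphosphate, stood at 42.2 and 47.5 FPKM in parental and 39.5 and 47.6 in LMO2 control libraries on day 0. On day 1 it stood at 56.9 and 80.4 and at 55.0 and 55.8 FPKM, above every day 0 library. On day 4 it stood at 49.8 and 60.2 and at 47.2 and 53.8 FPKM, where the days overlapped. The changes were 0.47 ± 0.08 (adjusted p = 0.238 in limma) and 0.25 ± 0.08 (adjusted p = 0.479 in limma).

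DHCR7, the last enzyme of the route to cholesterol, ranged from 69.6 to 97.5 FPKM on day 0, 90.5 to 141 on day 1 and 82 to 114 on day 4, with changes of 0.45 and 0.23. SQLE, which oxidises squalene, gave 0.39 and 0.27, and FDFT1, which makes squalene and was the most abundant enzyme, 0.50 and 0.15. The FDFT1 value of day 4 rested on single day 0 libraries, being 0.075 without parental replicate 2, 0.07 without LMO2 control replicate 1 and 0.282 without LMO2 control replicate 2. EBP, a sterol isomerase, stood above every day 0 library on day 1 (29.3 to 35.1 against 20.1 to 25.5 FPKM) and overlapped with day 0 on day 4 (19.6 to 26.7). HSD17B7, a sterol ketoreductase at 2.98 to 3.78 FPKM on day 0, stood above those values on both days, with changes of 0.38 and 0.46. Leaving out LMO2 control day 1 replicate 2 gave 7 calls on day 1, all higher: FDPS (adjusted p = 0.0445 in limma), MVD (0.0445), DHCR7 (0.0422), KRT8, KRT8P3, CITED4 and TRIB1, named here after their values were seen. That library is of the pair with the lowest enzyme median on day 1 (0.07). Leaving out any other single library gave 0 calls on day 1.

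**Figure D3:**
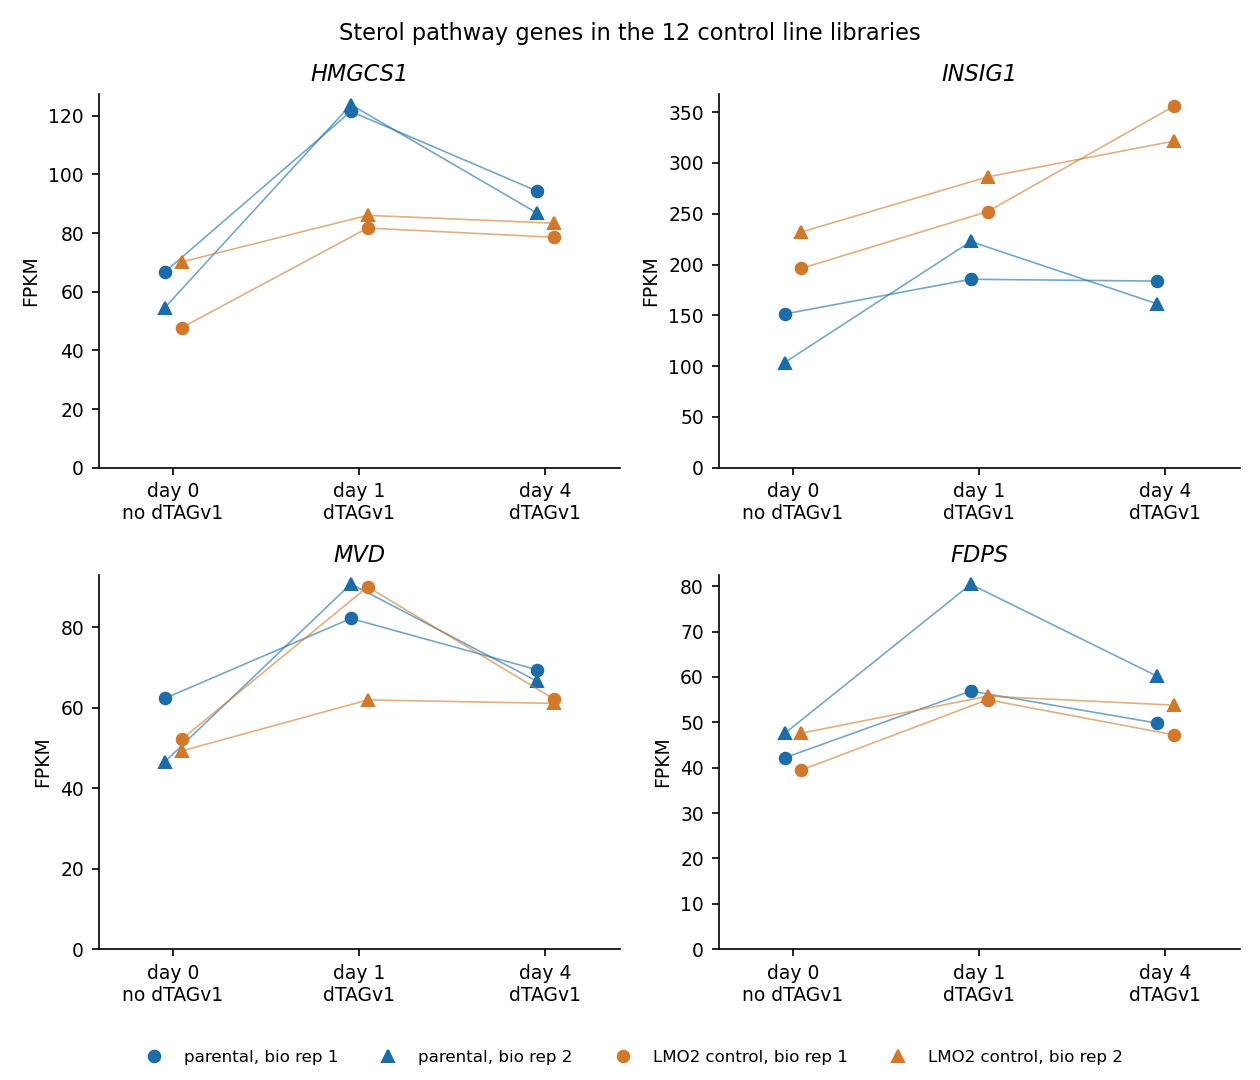
FPKM (y axes, from 0) of HMGCS1, INSIG1, MVD and FDPS on days 0, 1 and 4 (x axes) in each of the 12 libraries, blue for parental and orange for LMO2 control, circles for bio rep 1 and triangles for bio rep 2. HMGCS1 lies above its day 0 values of 47.7 to 70.2 FPKM in all 8 treated libraries.

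In the degron lines the enzymes went the other way by day 4. Their own change had a median of 0.15 on day 1 and -0.59 on day 4, when 16 of 22 fell and 1, PMVK, rose (33% of all genes rose and 24.8% fell). The degron change minus the control change was negative and called for 0 of 22 on day 1 and 16 of 22 on day 4, where 18.4% of all genes were called lower. HMGCS1 in the degron lines averaged 28.2 ± 8.44 and 36 ± 5.26 FPKM on day 0 and 17.8 ± 0.196 and 17.4 ± 0.364 on day 4 (SD, n = 2 in each line). The difference in change for HMGCS1 was -1.33 ± 0.22 on day 4 (adjusted p = 0.000126 in limma). Of that, the control lines contributed the 0.53 given above, and the degron lines' own change was -0.80 ± 0.16 (adjusted p = 0.00173 in limma).

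**Figure D4:**
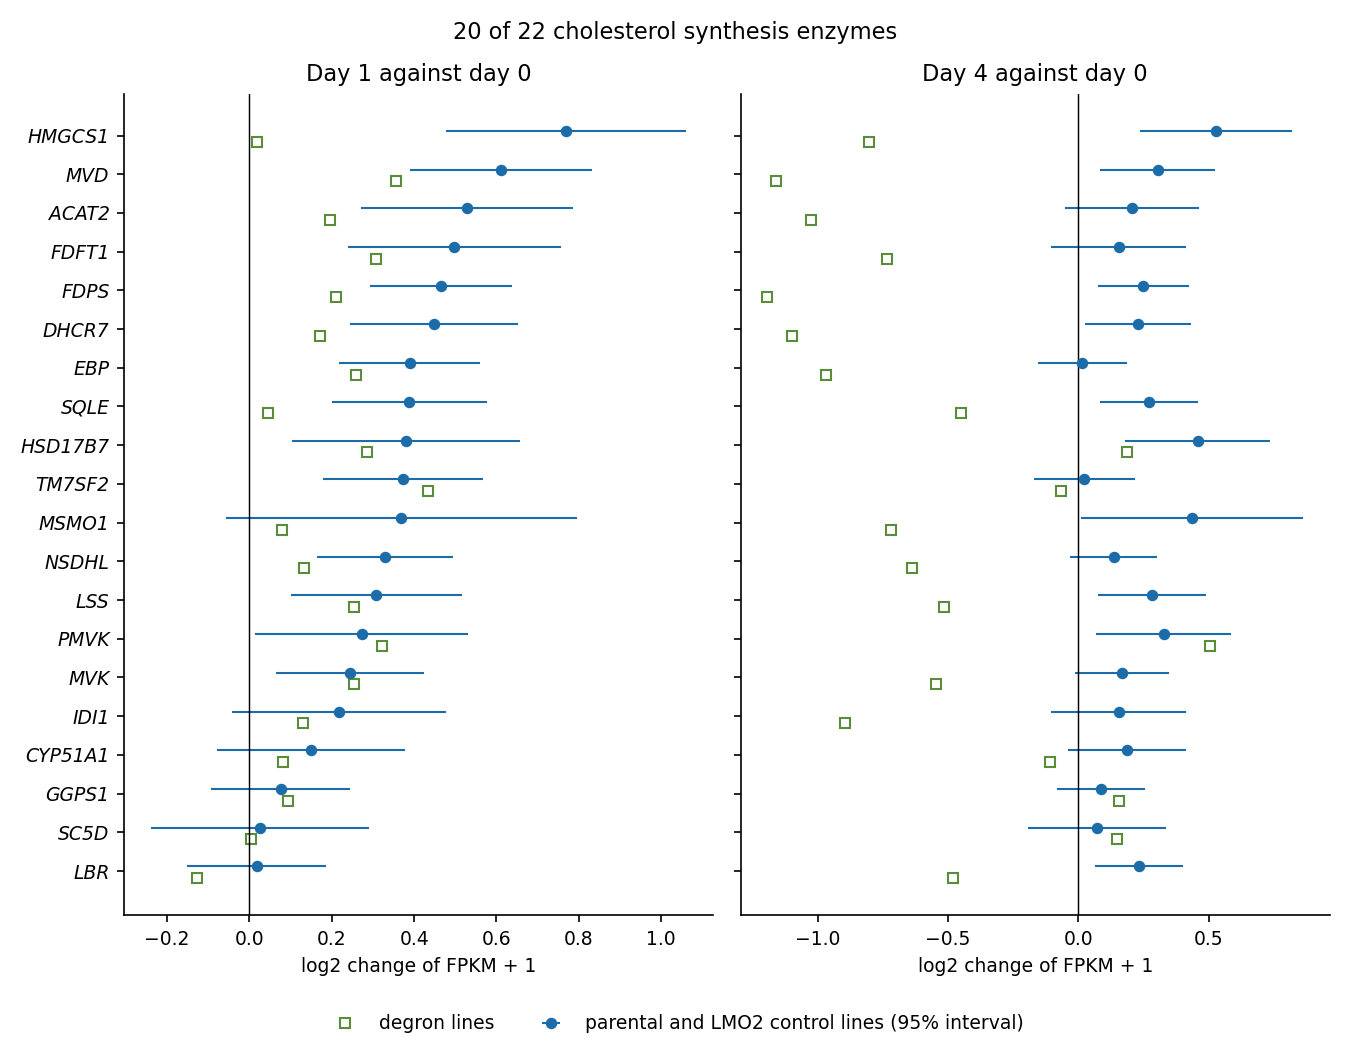
log2 change from day 0 (x axes) of 20 of the 22 cholesterol synthesis enzymes (rows) on day 1 and day 4, filled circles for the parental and LMO2 control lines with 95% intervals and open squares for the degron lines. All circles drawn lie above 0 on both days, and over the 22 enzymes the medians were 0.35 and 0.22, against -0.59 in the degron lines on day 4.

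INSIG1, which holds SCAP and SREBP back and is itself an SREBP target, was the most abundant gene of the sterol sensing and lipoprotein uptake list. It stood at 151 and 104 FPKM in parental and 196 and 232 in LMO2 control libraries on day 0. On day 1 it stood at 186 and 223 and at 252 and 286 FPKM, and on day 4 at 184 and 161 and at 356 and 322. Each treated library lay above its own day 0 library, while the lines' different levels made the days overlap. The changes were 0.51 ± 0.15 (adjusted p = 0.431 in limma) and 0.56 ± 0.15 (adjusted p = 0.426 in limma). Day 4 was the higher day in the LMO2 control line (0.33, then 0.66) and day 1 in the parental line (0.69, then 0.46), and the difference between the lines did not pass (adjusted p = 1 in limma on both days).

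INSIG1 also showed the widest gap to the degron lines among the sterol genes named. There it averaged 123 ± 2.78 and 237 ± 9.50 FPKM on day 0 and 43.1 ± 8.75 and 40.7 ± 2.10 on day 4 (SD, n = 2 in each line). The degron change minus the control change was -2.57 ± 0.27 on day 4 (adjusted p = 1.37e-06 in limma).

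In the same list INSIG2, the second INSIG protein, gave 0.31 on day 4. Over the 14 members, all tested, the medians were 0.07 and 0.10 (0.064 on day 4 without parental day 0 replicate 2), and 11 and 12 lay above 0, where 43.1% and 61.7% of all genes did. None was called and 2 and 3 were higher at an unadjusted p under 0.05, as were 3.89% and 6.16% of all genes.

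Fatty acid synthesis, which SREBP also drives, had medians of 0.14 and 0.23 over 13 members, with 0 called and 6 and 7 higher at an unadjusted p under 0.05, against 3.89% and 6.16% of all genes. The day 1 median was 0.087 without parental day 0 replicate 1 and 0.079 without parental day 1 replicate 2. SCD, the desaturase that makes oleate and the most abundant member, ranged from 291 to 341 FPKM on day 0, 330 to 422 on day 1 and 373 to 428 on day 4. Its day 4 libraries lay above all of day 0, with a change of 0.32 ± 0.07 (adjusted p = 0.334 in limma). Chosen after their values were seen, ACSS2, which makes acetyl-CoA from acetate, stood above every day 0 library on both days (0.82 ± 0.16 and 0.59 ± 0.16). FADS1, a fatty acid desaturase, did so on day 4 at 102 to 113 FPKM against 61.3 to 91.4 (0.50 ± 0.09, adjusted p = 0.291 in limma). FASN, fatty acid synthase, gave 0.07 on day 4, with 157 to 225 FPKM against 167 to 205.

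The proteins that dTAGv1 is built to join are the mutant FKBP12 tag and the VHL ligase. Whether it engages FKBP12 itself was not tested. VHL, the substrate receptor of that ligase, ranged from 14.1 to 20.8 FPKM on day 0, 14.8 to 19.1 on day 1 and 15.4 to 20.6 on day 4, within the day 0 range on both days. The 6 ligase genes tested had medians of 0.01 and 0.06, with 2 and 1 higher at an unadjusted p under 0.05 (3.89% and 6.16% of all genes were). The HIF targets, genes switched on by a factor that VHL removes, had medians of 0.14 and 0.16 over 18 tested, with 2 and 1 higher and 0 lower at an unadjusted p under 0.05, against 3.89% and 6.16% higher and 6.55% and 2.61% lower among all genes. The HIF medians rested largely on parental bio rep 2, whose own pair medians were 0.54 and 0.45, against 0.09 and 0.08 in parental bio rep 1, 0.02 and 0.10 in LMO2 control bio rep 1 and -0.13 and -0.07 in LMO2 control bio rep 2. Without parental day 0 replicate 2 they were 0.058 and 0.059, without parental day 1 replicate 2 the day 1 median was 0.052, and without parental day 4 replicate 2 the day 4 median was 0.092.

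Of 15 FKBP genes 12 were tested, with medians of -0.01 (0.01 after median-ratio rescaling) and 0.09 and 1 higher on each day at an unadjusted p under 0.05, against 3.89% and 6.16% of all genes. FKBP1A gave 0.30 ± 0.11 on day 4 (adjusted p = 0.488 in limma, and a change of 0.181 without LMO2 control day 0 replicate 2). It was higher in 4 of 4 pairs, as were 14.4% of all genes, and rose further in both LMO2 control pairs than in either parental pair. FKBP5, a cochaperone of steroid receptors, ranged from 17.4 to 26.6 FPKM on day 0 and 18.8 to 28.4 on day 4 (0.12 ± 0.07). In the degron lines it averaged 10.2 ± 0.380 and 8.11 ± 0.845 FPKM on day 0 and 3.12 ± 0.932 and 2.00 ± 0.269 on day 4 (SD, n = 2 in each line), and its change differed by -1.66 ± 0.15 (adjusted p = 2.82e-07 in limma). FKBP4, another such cochaperone, gave -0.08 in the control lines and differed by -1.19 ± 0.12 (adjusted p = 1.26e-06 in limma).

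Erythroid genes and a growth regulator that fell in the degron lines varied in the control lines, where none was called. KLF1 ranged from 95.1 to 149 FPKM on day 0 and 91.3 to 125 on day 4 (-0.12 ± 0.10, or -0.039 without LMO2 control day 4 replicate 1), and MYC, a regulator of growth, from 61.9 to 73.1 and 58.3 to 71 (-0.09 ± 0.10). Their degron changes differed from these by -3.02 ± 0.27 and -2.14 ± 0.17 (adjusted p = 3.38e-07 and 1.1e-07 in limma). HBZ, the embryonic alpha-like globin, was lower in all 4 pairs on day 4 (-0.44 ± 0.25, adjusted p = 0.651 in limma; -0.228 without LMO2 control day 4 replicate 1).

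ALAS2, the enzyme that starts heme synthesis in erythroid cells, and AQP1, a water channel of the red cell membrane, were named after their values were seen. ALAS2 stood at 245 and 60.3 FPKM in parental and 279 and 138 in LMO2 control libraries on day 0, and at 187 and 25.0 and at 224 and 80.4 on day 4. AQP1 stood at 12.4 and 3.93 and at 13.8 and 7.32 FPKM on day 0, and at 6.86 and 2.34 and at 8.27 and 2.78 on day 4. Both were lower in all 4 pairs on day 4, as were 5.92% of all genes, but the days overlapped. ALAS2 ranged from 60.3 to 279 FPKM on day 0 and 25.0 to 224 on day 4, and AQP1 from 3.93 to 13.8 and 2.34 to 8.27. Neither passed (-0.68 ± 0.30 with adjusted p = 0.559 for ALAS2 and -0.79 ± 0.17 with adjusted p = 0.334 for AQP1, in limma). In the degron lines their own day 4 changes were -1.77 and -1.58 (adjusted p = 0.00027 and 3e-06 in limma), and the difference in change was not called (-1.09 ± 0.55 with adjusted p = 0.124 and -0.79 ± 0.41 with adjusted p = 0.138, in limma). It was called for ALAS2 without parental day 4 replicate 2 (-1.41, adjusted p = 0.0464 in limma) and for AQP1 with a pseudocount of 0.1 (-1.40, adjusted p = 0.0281 in limma).

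Globins as a list had a median of 0.11 on day 1 and -0.18 on day 4 over 9 tested. Their day 4 pair medians were -0.45 (parental) and -0.64 (LMO2 control) in bio rep 1 and 0.06 and -0.09 in bio rep 2. With 1 library left out the globin medians ran from 0 (without parental day 0 replicate 2) to 0.228 (without parental day 1 replicate 2) on day 1 and from -0.344 (without LMO2 control day 4 replicate 2) to -0.087 (without LMO2 control day 4 replicate 1) on day 4. Parental day 0 replicate 1 (0.224), parental day 1 replicate 1 (0.017) and LMO2 control day 1 replicate 2 (0.074) also moved the first, and parental day 0 replicates 1 (-0.111) and 2 (-0.337) and LMO2 control day 0 replicate 2 (-0.114) the second. The erythroid membrane list had -0.09 and -0.23 over 19 tested, with 7 lower and 0 higher on day 4 at an unadjusted p under 0.05, a share that was 2.61% of all genes for lower values.

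Other lists, none with a called member, are given by their medians. Glycolysis enzymes had a median of 0.19 on day 1 (0.127 without LMO2 control day 1 replicate 1), with 16 of 17 above 0 and 9 higher at an unadjusted p under 0.05, against 43.1% and 3.89% of all genes. Their median was 0.04 on day 4 and -0.006 after median-ratio rescaling. GAPDH, the most abundant, gave 0.19 ± 0.08 on day 1 (0.12 without LMO2 control day 1 replicate 1), at 697 to 984 FPKM against 618 to 804. Immediate early genes, the first to respond to stimuli, had 0.26 on day 1 and -0.02 on day 4 over 14 tested (0.06 on day 4 with a pseudocount of 0.1), and JUND, a member of the AP-1 factors, gave 0.62 ± 0.18 on day 1. That day 1 median was 0.44 in bio rep 1 alone and 0.13 in bio rep 2 alone, 0.165 without parental day 0 replicate 1, 0.164 without parental day 1 replicate 2 and 0.401 without LMO2 control day 1 replicate 2. Ribosomal protein genes had 0.03 on day 1 and -0.14 on day 4, when 0 of 25 lay above 0 and 20 of 25 were lower in all pairs, as were 5.92% of all genes. RPS2, the most abundant, gave -0.11 ± 0.07 on day 4 (-0.065 without LMO2 control day 4 replicate 1).

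**Figure D5:**
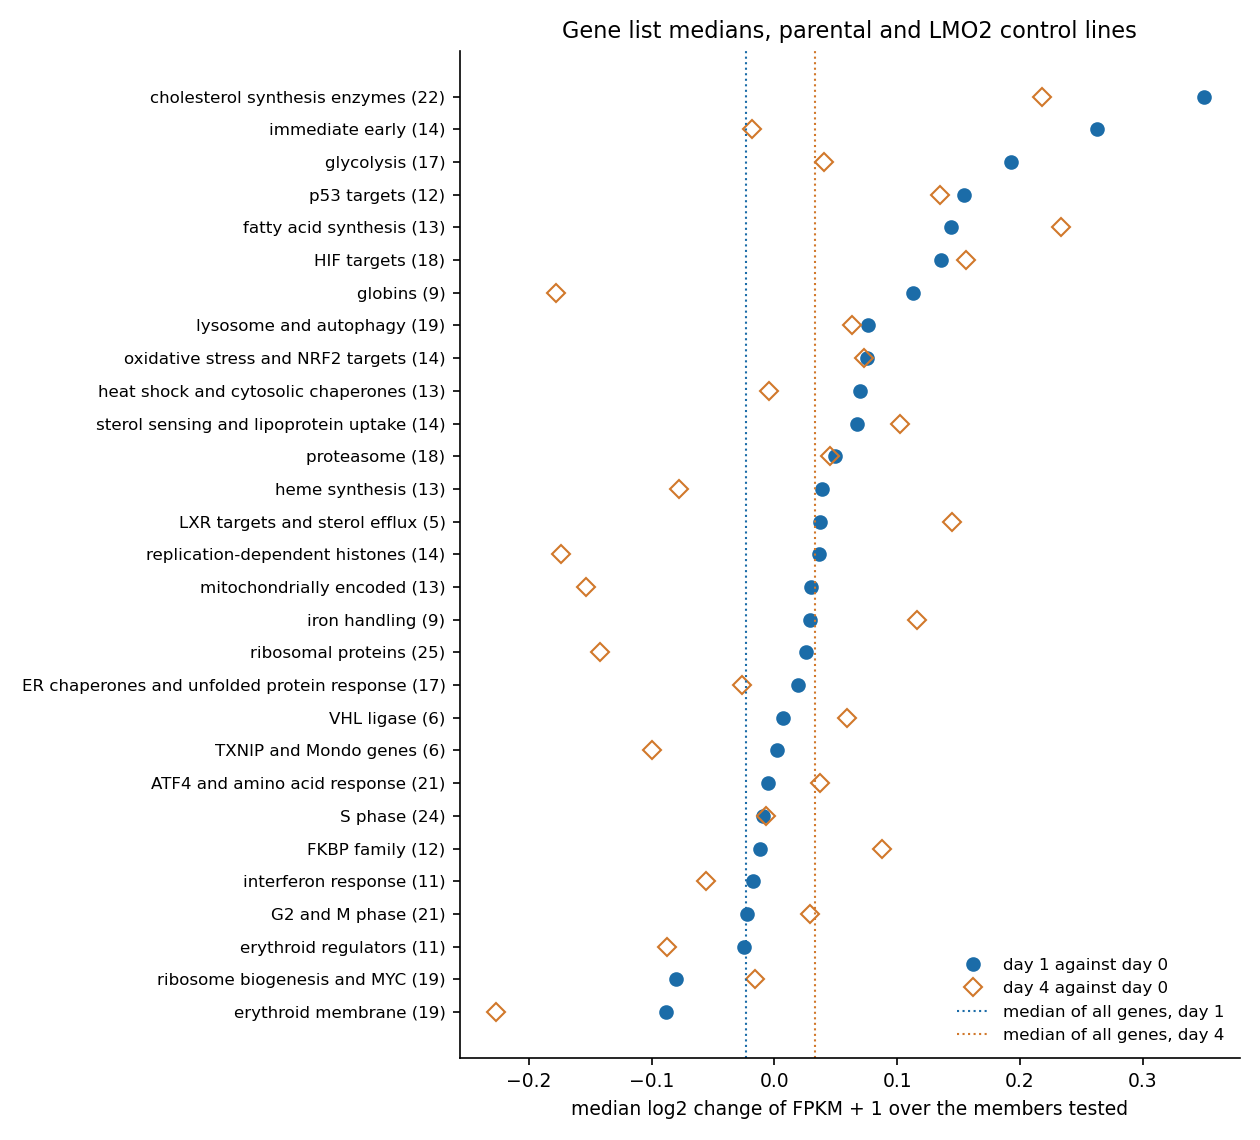
Median log2 change from day 0 (x axis) over the tested members of each gene list with at least 5 of them (rows, number tested in parentheses), filled circles for day 1 and open diamonds for day 4, with dotted lines at the medians of all genes. Cholesterol synthesis enzymes lie highest on day 1 at 0.35, and the erythroid membrane list lies lowest on day 4 at -0.23.

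Other single genes, named after their values were seen, fell short of the threshold too. GLUL, glutamine synthetase, ranged from 168 to 209 FPKM on day 0, 188 to 244 on day 1 and 246 to 282 on day 4, the last above every day 0 library. It gave 0.49 ± 0.07 on day 4 with the smallest adjusted p of that day (0.169 in limma), and in the degron lines its change was lower by 1.11 ± 0.17 (adjusted p = 4.91e-05 in limma). TUBA1A, an alpha tubulin, gave 0.75 ± 0.13 on day 1 (adjusted p = 0.238 in limma) and 0.59 ± 0.13 on day 4, and KRT8, a keratin, 0.66 ± 0.15 and 0.69 ± 0.15. Each was higher in 4 of 4 pairs on both days. MS4A3, a myeloid membrane protein, was lower in all 4 pairs on day 4, at 1.11 to 10.7 FPKM against 3.71 to 17.8 (-1.20 ± 0.26, adjusted p = 0.334 in limma). CENPE, a mitotic motor counted over 9928 bases, stood at 2.19 FPKM in parental and 1.23 in LMO2 control bio rep 1 on day 1, against 7.01 to 10.8 on day 0. Its bio rep 2 libraries of day 1 stood at 8.93 and 8.13 FPKM, so the low values were confined among the 12 libraries to the bio rep 1 libraries of day 1. In those libraries the longest 10% of genes (1393 genes of 9501 bases or more) had median changes of -0.06 (parental) and -0.17 (LMO2 control). The shortest 10% (1393 genes of 462 bases or less) had -0.06 and -0.07, and all genes -0.03 and -0.08. The part of length in these values was not tested.

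Day 4 against day 1 gave 0 calls in limma (2346 at an unadjusted p under 0.05, 16.8%, and 0 with voom weights), with a median of 0.06. The cholesterol enzymes stood lower on day 4 than on day 1, with a median of -0.09 and 8 of 22 lower at an unadjusted p under 0.05, a share that was 3.51% of all genes. HMGCS1 moved by -0.24, MVD by -0.31 and FDPS by -0.22 between the days, while INSIG1 moved by 0.05.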

How the data were processed

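PolyA RNA from 12 parental and LMO2 control K562 libraries was analysed beside 12 degron line libraries of the same table. The authors deposited FPKM for 60642 genes, and per the submitters' processing notes FastQC, STAR, featureCounts and the build hg19 were used, with versions, annotation and strand setting not given in the sources used here. HEL and LDB1 tables were not used here. FPKM were tested as log2(FPKM + 1) over the 13949 genes that reached 1 FPKM in 2 or more of the 12 libraries, in limma 3.58.1 (R 4.3.3) with line, bio rep and day as terms, trend and robust settings, 7 residual degrees of freedom and Benjamini-Hochberg adjustment, called under 0.05. Differences between lines in the change from day 0 were interaction terms, and degron against control used all 24 libraries. The scripts were tested on simulated data.

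Whole reads were recovered for 30506 of 30507 genes above 0 in at least 6 libraries (within 0.02 of a whole number), which gave the depths and a voom fit. Same-numbered libraries deviated together from their group means (correlation 0.394 to 0.675 over 15 pairs), so the bio rep numbers pair libraries as the shared term assumes. The 33 gene lists held 509 members, of which 508 matched and 440 were tested. The members and lists were chosen with earlier results of these data known. Genes named were INSIG1, HMGCS1, LMO2, the most abundant member of each list, and members of the sterol, FKBP and VHL lists (some are not reported here), with others said to be chosen after their values were seen. Lists are described by counts and medians, with no test of a list. Reads of near-identical copies (FKBP1A and FKBP1C, KRT8 and KRT8P3, ribosomal proteins, globins) may have been split. Promoters came from RefSeq (GRCh38.p14) and no coordinate was carried to hg19. 17 of 22 enzyme symbols had a promoter in that table.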

Additional observations from a re-analysis of the deposited data

Results flagged for a closer look

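The change from day 0 differed between degron and control lines, by the interaction term of the limma fit, for 313 genes on day 1 and 5406 on day 4. Among sterol and lipid genes, the degron change minus the control change on day 4 was -2.57 for INSIG1, -1.86 for FADS1, -1.70 for FASN, -1.47 for MVD, -1.44 for FDPS, -1.36 for SCD, -1.33 for HMGCS1, -1.33 for DHCR7, -1.15 for MSMO1, -1.08 for ACSS2, -0.89 for FDFT1, -0.80 for LSS, -0.72 for SQLE, -0.71 for LBR and -0.33 for INSIG2. INSIG2 missed the threshold when parental day 0 replicate 2 (adjusted p = 0.0688 in limma), parental day 4 replicate 2 (0.051) or LMO2 control day 4 replicate 1 (0.0665) was left out. Among erythroid, growth and other genes it was -3.52 for HBZ, -3.02 for KLF1, -2.14 for MYC, -1.66 for FKBP5, -1.43 for KRT8, -1.19 for FKBP4, -1.11 for GLUL and -0.92 for RPS2. TUBA1A (0.77) and MS4A3 (1.10) went further up, or less far down, in the degron lines than in the control lines, and MS4A3 had an adjusted p of 0.0546 in limma with a pseudocount of 0.1.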

How the results depend on the processing

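Of the counts of called genes recomputed under each alternative, 119 kept within 1.5 times the main count and 13 did not. The main count was 0 for the day comparisons of the control lines and for LMO2 control against parental. There a count was kept only if it was also 0. Without a filter on low values, day 1 and day 4 each had 1 call (AL021546.1). With the spread of all 24 libraries, day 4 against day 1 had 16 calls, and bio rep 1 alone, added after seeing the data, gave it 13. Leaving out 1 library gave 0 to 7 calls on day 1 (7 without LMO2 control day 1 replicate 2), 0 to 1 on day 4 and 0 to 1 for day 4 against day 1 (1, TRBD1, without LMO2 control day 4 replicate 2). For degron minus control it gave 161 to 587 on day 1 (587 without parental day 0 replicate 2, 161 without parental day 1 replicate 1, 175 without LMO2 control day 0 replicate 2 and 170 without LMO2 control day 1 replicate 2) and 4900 to 5618 on day 4. The no replicate block fit called 26 and 3342 there and 0 in each day comparison of the control lines (507, 381 and 947 at unadjusted p under 0.05). The block moved MSMO1 and INSIG2 past the threshold for that difference (adjusted p = 0.114 and 0.215 in limma without it) and changed no other call of a named gene. The parental line alone and the LMO2 control line alone gave 0 calls in every day comparison.

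CENPE on day 1, -0.999 over both bio reps, turned to 0.125 in bio rep 2 alone. Smaller changes that turned sign were FKBP4 (0.044) and FASN (-0.017) on day 4 in bio rep 1 alone, MYC (0.064) on day 1 in bio rep 2 alone, and KLF1 on day 1 after median-ratio rescaling (0.005) and in the LMO2 control line alone (0.018). With 1 library left out, LMO2 on day 1 ran from -0.069 (lowest without parental day 1 replicate 1) to 0.242, FKBP4 on day 4 from -0.144 to 0.023 (highest without parental day 0 replicate 2) and KLF1 on day 1 from -0.091 to 0.068 (highest without parental day 1 replicate 2). The cause was not tested. The cholesterol enzymes' median stayed above 0 under every alternative run, from 0.26 to 0.40 on day 1 and from 0.08 (bio rep 2 alone) to 0.30 on day 4. With 4 libraries a day, differences smaller than the intervals given were not detectable. Larger ones could also go uncalled after adjustment over 13949 genes. In limma, 1457 genes on day 1 and 1223 on day 4 had an unadjusted p under 0.05, and 0 were called. A count of 0 therefore does not show that no gene changed.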
